A study of Homo sapiens and Mus musculus with 36 samples.

Results

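MS7126N1 and MS7126N2 are compounds that the series' design names as analogs of MS7126 lacking PROTAC function; MS7126 itself is named as a PROTAC against EZH2, a molecule made to have that protein degraded. The members here were chosen by label: the 4 libraries of the 36 in the series that came from HepG2 cells, a human liver cancer line, given 5 uM MS7126N1 or 5 uM MS7126N2 for 48 h, 2 libraries per compound. Each analog was set against the same 2 DMSO libraries, and against 2 libraries each of MS7126 and of C24, named as the inhibitor matched to it, at the same dose and time. All of these are HepG2 cells with no hairpin or other modification in their labels, and MS7126N1, MS7126N2, MS7126 and C24 are the only agents named. Their structures are not described here. Of the genes in the 2 analog tables (18817 with MS7126N1, 18528 with MS7126N2), 14331 had a mean of at least 10 normalized counts in both and were kept.

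EZH2 is the catalytic subunit of PRC2, a Polycomb complex that methylates histone H3 at lysine 27 and keeps developmental genes silent. A degrader binds its target at one end and an E3 ubiquitin ligase at the other; an analog without that function serves as a control for effects of the molecule that do not need degradation. In the integrated stress response, phosphorylation of the initiation factor eIF2 alpha favours translation of ATF4, a bZIP transcription factor that raises genes for amino acid synthesis, amino acid import and tRNA charging. Hepatocytes also hold a sterol circuit in which SREBP2, the product of SREBF2, raises cholesterol synthesis and uptake genes when sterols are scarce.

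The comparisons rest on the authors' deposited tables, 1 per compound, which give for each gene the mean of normalized counts over both groups, a log2 fold change over DMSO, its standard error (SE) and a p-value. Values of single libraries were not analysed here, so each group is shown by a level rebuilt from the mean and the fold change, in normalized counts. The means summed to 16792259 in the MS7126N1 table and 16826362 in the MS7126N2 table, and the median SE of a log2 fold change was 0.33 and 0.34. No label tells whether a group's 2 libraries are from separate cultures; p-values here measure their spread alone, which may be technical. The hepatocyte markers fixed for the cell type check (ALB, AFP, APOA1, APOB, TTR, SERPINA1, HNF4A) were all kept, with a lowest mean of 1561 in the MS7126N1 table. Of the markers of other cell types, 4 of 7 immune, 1 of 6 endothelial, 4 of 7 fibroblast and 4 of 6 biliary markers were kept; CD3E, CD79A, VWF, CDH5, COL3A1, DCN, KRT7 and CFTR were among those below the limit or not in both tables. Some kept markers of other types had high means in the MS7126N1 table. The highest was 9082 among the immune markers, and the biliary ones ran from 1592 to 10387. No marker on these lists was called with either analog.

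Few genes passed the threshold with MS7126N1 and more with MS7126N2. A gene is said to have risen or fallen, or to be called, where its Benjamini-Hochberg adjusted p was under 0.05. In the authors' deposited table of MS7126N1, 29 of the 14331 genes were called (0.202%), 13 higher (0.0907%) and 16 lower (0.112%). With MS7126N2 the authors' deposited table called 102 genes (0.712%), 51 higher (0.356%) and 51 lower (0.356%). At least a 2-fold change was reached by 25 of the genes called with MS7126N1 and by 70 of those called with MS7126N2. The unadjusted p was under 0.05 for 2.62% of genes with MS7126N1 and 4.86% with MS7126N2. For the other compounds at the same dose and time, 1991 of 12893 genes with an adjusted p were called with MS7126 (15.4%), 949 higher (7.36%) and 1042 lower (8.08%). With C24 there were 572 of 8146 (7.02%), 245 higher (3.01%) and 327 lower (4.01%). Since all 4 compounds were measured against the same DMSO libraries, a value shared by several of them is not independent support.

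Both tables used the same DMSO libraries, and over all genes the rebuilt DMSO levels matched, their log2 ratio having an interquartile range of 0.0451. They were over 1.2-fold apart for 780 of the 14331 genes (5.44%). Among the 29 genes called with MS7126N1, they were over 1.2-fold apart for 17 (58.6%), and among the 102 called with MS7126N2 for 28 (27.5%). Of the 39 kept ATF4 genes described below, 1 was over 1.2-fold apart, and of the 32 sterol genes 0. Without the genes past this limit, 12 genes were called with MS7126N1, 4 higher and 8 lower, and 74 with MS7126N2, 39 higher and 35 lower. This limit was chosen after seeing the data, and the part of the unequal DMSO levels in the calls was not tested.

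EZH2 mRNA was not called with either analog. The rebuilt EZH2 level (chromosome 7, 148807383 to 148884321, minus strand, GRCh38) was 274 in DMSO and 223 with MS7126N1, and 265 and 224 in the table of MS7126N2. In the authors' deposited tables, the log2 fold change of EZH2 was -0.30 (SE 0.31) with MS7126N1, -0.25 (SE 0.28) with MS7126N2, -0.29 (SE 0.27) with MS7126 and -0.28 (SE 0.26) with C24. The analogs differed by 0.05 (SE 0.42), with a 95% interval of -0.77 to 0.87. RNA says nothing here of EZH2 protein, which was not measured in these files. Of the 12 kept PRC2 subunits, none was called with either analog, and the medians were 0.14 with MS7126N1 and -0.02 with MS7126N2, beside -0.01 over all genes for each. EED, the subunit that binds the methylated histone, had a rebuilt level of 86.1 in DMSO and 204 with MS7126N2 and was not called (1.24 (SE 0.48) in the authors' deposited table, adjusted p = 0.504). Of 26 genes known as PRC2-repressed only 12 were kept. The others were below the limit on the mean or not in both tables, so nothing is said of them here. None of the 12 was called. Their median was -0.31 with MS7126N2, with 10 of 12 below 0, and -0.00063 with MS7126N1, with 6 of 12 below 0. CBX6, which reads the PRC2 mark in the Polycomb complex PRC1, fell with MS7126N2 from a rebuilt level of 547 to 245. Its log2 fold change was -1.16 (SE 0.23) in the authors' deposited table, against -0.17 (SE 0.20) with MS7126N1. The difference between the analogs did not pass (-0.99 (SE 0.30), adjusted p = 0.077, normal test). CBX6 was the only 1 of 19 kept PRC1 and CBX genes called with MS7126N2, beside 0.712% of all genes. Of the 19, 9 lay above 0 and 10 below, with a median of -0.07.

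Of the 34 gene lists read here, none held more than 1 gene called with MS7126N1. PER1, a repressor of the circadian clock (chromosome 17, 8140472 to 8156506, minus strand), fell, with the smallest adjusted p of its calls: the rebuilt level was 381 in DMSO and 12.5 with MS7126N1, a log2 fold change of -4.93 (SE 0.42) in the authors' deposited table (adjusted p = 4.73e-27). PER1 was low against DMSO in all 4 tables, with rebuilt levels of 16.4 with MS7126N2, 20.8 with MS7126 and 19.5 with C24, and the authors' deposited tables give log2 fold changes of -4.43 (SE 0.43), -3.83 (SE 0.47) and -4.19 (SE 0.40). The DMSO libraries are the same in each of these 4 values. The analogs' PER1 values differed by 0.51 (SE 0.60), with a 95% interval of -0.67 to 1.68. Of the 17 kept circadian clock genes PER1 was the 1 called with each analog, beside 0.202% of all genes with MS7126N1 and 0.712% with MS7126N2. The median of the 17 was -0.09 with MS7126N1 and 0.04 with MS7126N2.

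ELOVL6, an elongase that lengthens saturated fatty acids (chromosome 4, 110045846 to 110199199, minus strand), fell with MS7126N1 and with no other compound. Its rebuilt level was 679 in DMSO and 116 with MS7126N1, but 304 in DMSO and 256 with MS7126N2 in the other table, so the DMSO values themselves were over 2-fold apart. In the authors' deposited tables its log2 fold changes were -2.54 (SE 0.29) with MS7126N1, -0.25 (SE 0.31) with MS7126N2, 0.09 (SE 0.36) with MS7126 and -0.40 (SE 0.49) with C24. The difference of MS7126N1 from each of the other 3 compounds passed, with MS7126N2 at 2.30 (SE 0.42) and an adjusted p of 2.54e-05 by the normal test on the 2 fold changes. Over the 17 kept genes of fatty acid synthesis, the median was 0.15 with MS7126N1, and ELOVL6 was its only call, beside 0.202% of all genes called.

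CBX5, the heterochromatin protein HP1 alpha, rose with MS7126N1. The rebuilt CBX5 level was 406 in DMSO and 2423 with MS7126N1, and 873 in DMSO and 921 with MS7126N2. For CBX5 the authors' deposited tables give log2 fold changes of 2.58 (SE 0.42) with MS7126N1, 0.08 (SE 0.18) with MS7126N2, -0.62 (SE 0.18) with MS7126 and 2.23 (SE 0.20) with C24. Both MS7126N1 and C24 were above DMSO, and their difference was -0.34 (SE 0.46), with a 95% interval of -1.25 to 0.57. MS7126N2 differed from MS7126N1 by -2.50 (SE 0.45) on the log2 scale (adjusted p = 1.48e-05, normal test). The CBX5 DMSO values of 406 and 873 were themselves over 1.2-fold apart, and the part of this gap in the difference was not tested.

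Of the other genes called with MS7126N1 and compared below, most had the same sign with the compounds whose values are printed, though HOOK3 did not. All of these values rest on the same DMSO libraries. POLG, the catalytic subunit of the mitochondrial DNA polymerase, fell with a log2 fold change of -2.73 (SE 0.35) in the authors' deposited table, and its values were -1.47 (SE 1.62) with MS7126N2, where it was not called, -4.23 (SE 0.48) with MS7126 and -2.25 (SE 0.40) with C24. PIGA, which starts the synthesis of GPI anchors, had -3.58 (SE 0.37) with MS7126N1, -1.27 (SE 0.92) with MS7126N2, where it was not called, and -4.10 (SE 0.45) with MS7126 in the authors' deposited tables. The DNA repair gene BRCA2 had -1.56 (SE 0.26) with MS7126N1 and -0.97 (SE 0.64) with MS7126N2, where it was not called. LRP5, a Wnt co-receptor, had -1.01 (SE 0.24) and -0.72 (SE 0.22), with the second again not called. Among the genes that rose, PLA2G12A, a secreted phospholipase, had 2.31 (SE 0.37) with MS7126N1, 0.64 (SE 0.35) with MS7126N2, 3.50 (SE 0.30) with MS7126 and 2.45 (SE 0.30) with C24 in the authors' deposited tables. HOOK3, an adaptor that links cargo to dynein, had 0.98 (SE 0.23) with MS7126N1 and -0.06 (SE 0.36) with MS7126N2. PCDHB2, a protocadherin of a cluster of similar genes that can share reads, had -3.73 (SE 0.37) with MS7126N1, -4.18 (SE 0.38) with MS7126 and -1.50 (SE 1.26) with MS7126N2. Of these, BRCA2, PIGA, PLA2G12A and PCDHB2 had DMSO levels over 1.2-fold apart between the analog tables. Of the 29 genes, 21 did not pass the test of a difference from any of the other 3 compounds, and 2 (ELOVL6 and PDAP1) passed against all 3; with a covariance for the DMSO libraries in common these were 14 and 3. In 6 of the 29, among them NICN1 and SPDYE9P, the SE was above 1 and a group level lay near 0; their fitted fold changes of up to -8.62 set no size.

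**Figure D1:**
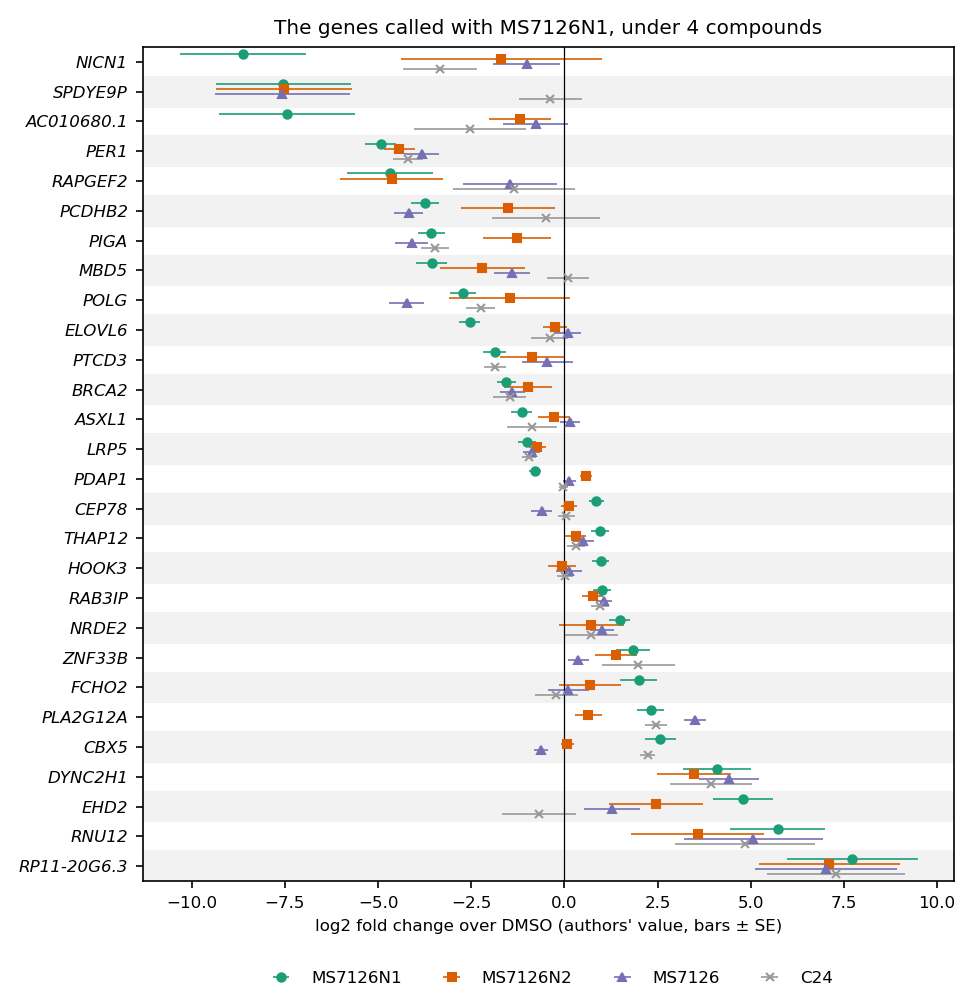
Log2 fold change over DMSO (x axis, from the authors' deposited tables, bars ± SE) for 28 of the 29 genes called with MS7126N1 (y axis), with circles for MS7126N1, squares for MS7126N2, triangles for MS7126 and crosses for C24. PER1 sits between -4.93 and -3.83 for all 4 compounds, while ELOVL6 sits at -2.54 for MS7126N1 and between -0.40 and 0.09 for the others.

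The GC content of transcripts moved with the MS7126N1 values. For 12813 kept genes (89.4%) a transcript was matched, and over 5 equal bins of rising GC content the median log2 fold change with MS7126N1 was 0.14, 0.06, -0.01, -0.06 and -0.10. With MS7126N2 the 5 medians lay between -0.01 and 0.01. Of the 13 genes that rose with MS7126N1, 8 were in the bin of lowest GC content. With fold changes centred within bins of GC content, 23 genes were called with MS7126N1, 7 higher and 16 lower, and 93 with MS7126N2. CBX5, ELOVL6, PDAP1 and PER1 were among those still called with MS7126N1, while 8 were not. Of those 8, the log2 fold change after centring was 0.83 for HOOK3, -0.91 for LRP5 and -1.09 for ASXL1, with adjusted p of 0.103, 0.0771 and 0.0533 by the normal test. Over 5 bins of rising mean count the medians with MS7126N2 were -0.16, -0.04, 0.02, 0.02 and 0.02. Over 5 bins of rising transcript length they were 0.02, 0.05, 0.01, -0.02 and -0.08. With MS7126N1 the medians lay between -0.04 and 0.03 by count, and between -0.05 and 0.05 by length. The part of GC content, count or length in these calls was not tested further.

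MS7126N2 raised genes of the ATF4 programme. Of 39 kept genes on 4 lists of ATF4 regulators and targets, 13 rose with MS7126N2 and none fell, beside 0.356% of all genes rising. Their median log2 fold change was 0.70, against -0.01 over all genes, and 39 of 39 lay above 0. With MS7126N1 none of the 39 was called, the median was -0.01 and 17 of 39 lay above 0. The same list had a median of 1.39 with MS7126 and 0.18 with C24. The lists were chosen with earlier results of these data known, and the DMSO libraries are shared, so these counts are a description.

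Among the enzymes, ASNS, which makes asparagine (chromosome 7, 97852118 to 97872542, minus strand), had the smallest adjusted p of the genes that rose. The rebuilt ASNS level was 605 in DMSO and 604 with MS7126N1, and 596 in DMSO and 2232 with MS7126N2, 3.75 times DMSO. It reached 6100.3 with MS7126 and 803 with C24. The log2 fold changes given by the authors' deposited tables were -0.004 (SE 0.21), 1.91 (SE 0.18) (adjusted p = 1.31e-23), 3.29 (SE 0.17) and 0.37 (SE 0.21) for MS7126N1, MS7126N2, MS7126 and C24. MS7126N2 exceeded MS7126N1 by 1.91 (SE 0.28) with an adjusted p of 4.63e-09 and C24 by 1.53, and stayed 1.39 (SE 0.25) below MS7126, all by the normal test. By this test ASNS was the only gene called with MS7126N2 that differed from all 3 other compounds; with a covariance for the DMSO libraries in common 18 did. PSAT1 of serine synthesis, the mitochondrial folate enzymes SHMT2 and MTHFD2, and PCK2, the mitochondrial phosphoenolpyruvate carboxykinase, also rose: rebuilt levels with MS7126N2 against DMSO were 4677 and 2881 for PSAT1, 3512 and 2059 for SHMT2, 2624 and 1434 for MTHFD2, and 4735 and 2566 for PCK2. Their log2 fold changes in the authors' deposited table lay between 0.70 and 0.88. The remaining 9 enzymes of 14 were not called with MS7126N2, from CTH at 1.25 (SE 0.40) to ALDH18A1 at 0.0023.

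The promoter of ASNS holds a sequence of the C/EBP-ATF composite type, to which ATF4 is known to bind with a C/EBP partner. The 8-letter pattern TGATGNAA was searched on both strands in the 250 bases before each start in RefSeq's promoters (GRCh38.p14), for 9663 kept genes that matched by symbol. It was found in 242 of 14091 promoters (1.72%), in 7 of 54 promoters of the ATF4 lists (13.0%) and in 4 of 52 promoters of genes called higher with MS7126N2 (7.69%). Those 4 belong to ASNS, ANGPTL8, S100P and SLC1A5. The 150 bases before the start are shown for ASNS, ANGPTL8 and S100P, 3 genes that rose with MS7126N2, with the match in capitals; it begins 68, 126 and 123 bases before the start, and in S100P it reads on the other strand. ASNS is at chr7:97872409-97872558 (minus strand), ANGPTL8 at chr19:11239469-11239618 and S100P at chr4:6693728-6693877 (both plus strand).
ASNS: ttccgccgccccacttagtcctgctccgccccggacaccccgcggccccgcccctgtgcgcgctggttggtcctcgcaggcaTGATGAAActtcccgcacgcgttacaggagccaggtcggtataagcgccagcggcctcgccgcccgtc
ANGPTL8: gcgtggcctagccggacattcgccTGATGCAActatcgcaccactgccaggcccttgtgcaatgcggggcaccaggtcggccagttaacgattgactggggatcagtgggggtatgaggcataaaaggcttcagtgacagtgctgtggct
S100P: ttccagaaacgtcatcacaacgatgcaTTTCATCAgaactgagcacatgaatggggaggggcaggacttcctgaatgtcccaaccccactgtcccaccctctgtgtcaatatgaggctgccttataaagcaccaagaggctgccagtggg
A match is a description of the letters, and binding was not measured in these files.

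Among the ATF4 regulators, TRIB3, CEBPB and NUPR1 rose with MS7126N2, and the CHOP gene and ATF4 itself were not called. TRIB3, a pseudokinase that feeds back on ATF4, had a rebuilt level of 1144 in DMSO and 1156 with MS7126N1, and 1142 in DMSO and 2285 with MS7126N2. Its log2 fold changes given by the authors' deposited tables were 0.01 (SE 0.15) with MS7126N1, 1.00 (SE 0.15) with MS7126N2, 2.71 (SE 0.14) with MS7126 and 0.56 (SE 0.12) with C24. CEBPB, a bZIP factor, had a log2 fold change of 0.71 (SE 0.17) with MS7126N2 and 0.0016 (SE 0.15) with MS7126N1 in the authors' deposited tables. NUPR1, a small nuclear stress protein, had 0.93 (SE 0.18) and -0.11 (SE 0.21). ATF4 went from a rebuilt 4944 to 6581 (0.41 (SE 0.13), adjusted p = 0.151 in the authors' deposited table). DDIT3, the gene of CHOP, went from 81.8 to 173 (1.08 (SE 0.40), adjusted p = 0.384). Neither passed, and the 95% interval of the DDIT3 value was 0.30 to 1.85.

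ATF3 and PPP1R15A, which is the subunit that takes the phosphate off eIF2 alpha, were near their DMSO level with MS7126N2 and rose with MS7126. The rebuilt PPP1R15A level was 306 in DMSO and 323 with MS7126N2, against 1515 with MS7126. The log2 fold changes of PPP1R15A in the authors' deposited tables were 0.08 (SE 0.26) with MS7126N2 and 2.28 (SE 0.19) with MS7126, and the difference passed (2.21 (SE 0.32), adjusted p = 6.15e-09, normal test). ATF3 had 0.04 (SE 0.49) with MS7126N2 and 2.18 (SE 0.39) with MS7126, and its difference of 2.14 (SE 0.63) had an adjusted p of 0.0544.

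Of the amino acid transporters, 3 of 8 rose with MS7126N2, beside 0.356% of all genes. SLC7A11, which exchanges cystine for glutamate (chromosome 4, 138164097 to 138242349, minus strand), had a rebuilt level of 273 in DMSO and 605 with MS7126N2, beside 287 with MS7126N1 and 1799 with MS7126. SLC6A9, a glycine transporter, went from 110.4 to 311, and SLC1A5, a glutamine transporter, from 4215 to 7043. The log2 fold changes in the authors' deposited table of MS7126N2 were 1.15 (SE 0.25), 1.49 (SE 0.30) and 0.74 (SE 0.13) in that order. The subunits of the leucine exchanger, SLC7A5 and SLC3A2, were not called with MS7126N2, at 0.13 (SE 0.13) and 0.46 (SE 0.15) in the authors' deposited table. Of the other 7 targets, DDIT4, an inhibitor of mTORC1, rose from 223 to 619.9 and STC2, a secreted glycoprotein, from 736 to 1249. GDF15, a stress hormone of the liver, was not called with MS7126N2 (0.35 (SE 0.15), adjusted p = 0.661) while the authors' deposited table of MS7126 gave it 1.67 (SE 0.13); the difference of 1.32 (SE 0.20) passed with an adjusted p of 1.6e-08.

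**Figure D2:**
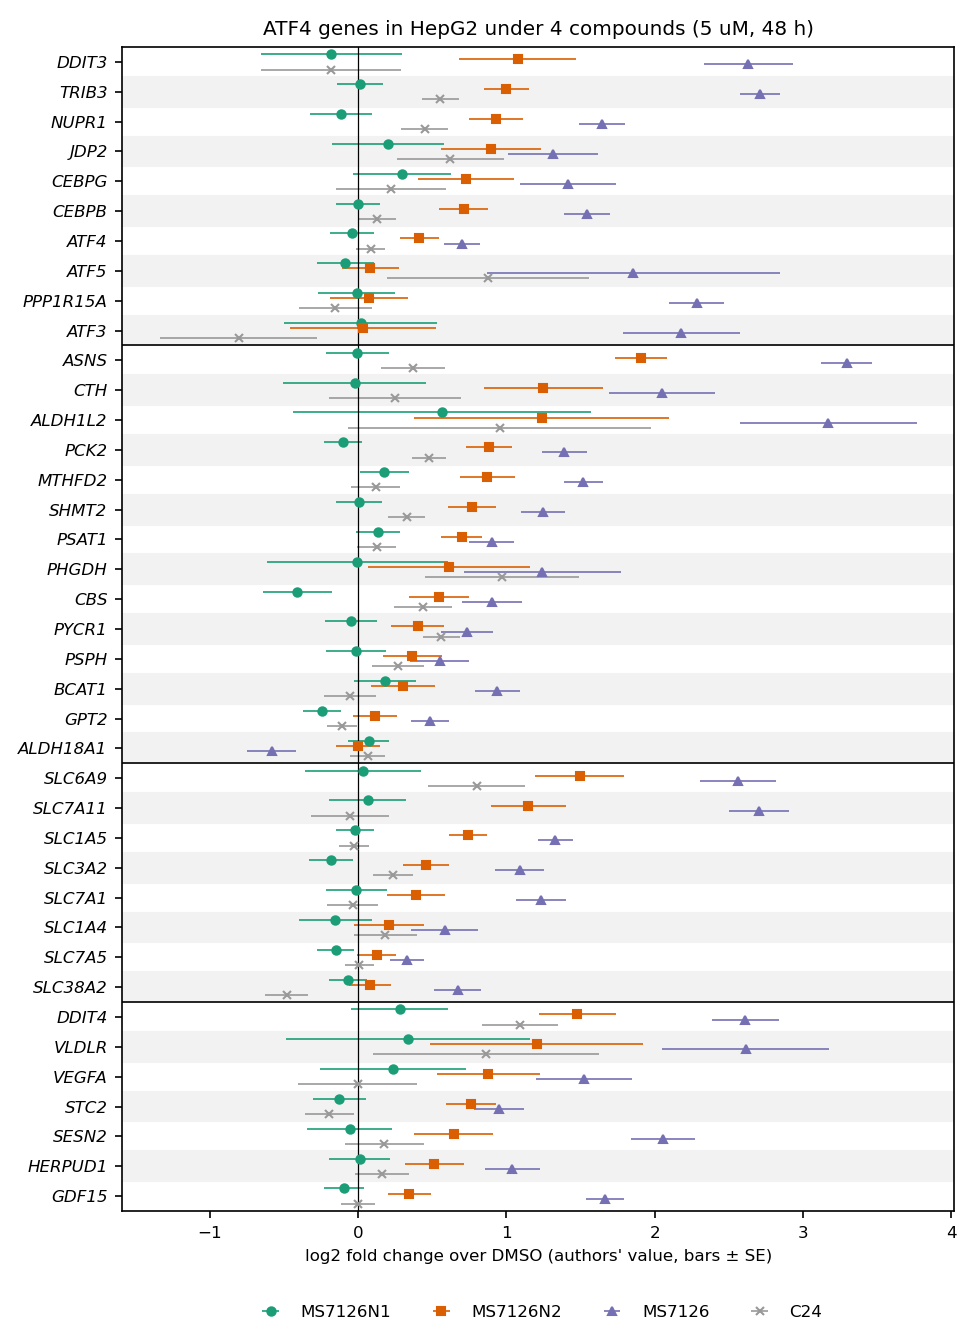
Log2 fold change over DMSO (x axis, from the authors' deposited tables, bars ± SE) for the 39 kept ATF4 genes (y axis), in blocks of regulators, enzymes, transporters and other targets, with circles for MS7126N1, squares for MS7126N2, triangles for MS7126 and crosses for C24. MS7126N2 lies at or to the right of 0 for all 39 genes, up to 1.91 for ASNS, and MS7126N1 lies on both sides of 0.

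The aminoacyl-tRNA synthetases, which charge tRNAs and are ATF4 targets in part, had a median of 0.37 with MS7126N2 and -0.01 with MS7126N1. YARS was the 1 of 17 called with MS7126N2, beside 0.712% of all genes, and rose from a rebuilt 1026 to 1555 (0.60 (SE 0.16) in the authors' deposited table). The 17 kept genes of the unfolded protein response, which include chaperones of the endoplasmic reticulum, had medians of 0.05 with MS7126N2 and 0.03 with MS7126N1, and none was called with either. Of the 14 kept immediate early genes none was called with either analog, with a median of 0.04 for each, beside 8 of 14 rising and a median of 1.04 with MS7126, where 7.36% of all genes rose. DNA replication (33 genes) and mitosis (28 genes) had no call with either analog, and medians between -0.07 and 0.10, while with MS7126, where 8.08% of all genes fell, 17 members of each list did.

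Other genes that rose with MS7126N2 include hormones and metabolic enzymes outside these lists. The secreted factors ADM2, INHBE and ANGPTL8, the last an inhibitor of lipoprotein lipase, had log2 fold changes of 1.64 (SE 0.34), 1.39 (SE 0.35) and 1.61 (SE 0.39) in the authors' deposited table, and between -0.03 and 0.39 with MS7126N1. EIF4EBP1, a brake on cap-dependent translation, went from a rebuilt 1906 to 3197, and UCK2, a uridine-cytidine kinase, from 399 to 1135, with a DMSO level of 562 in the MS7126N1 table. SMOX, which oxidises spermine, went from 371 to 722 with MS7126N2 and reached 2564 with MS7126. NFATC2IP went the other way with the parent: its log2 fold changes given by the authors' deposited tables were 1.70 (SE 0.24) with MS7126N2 and -0.58 (SE 0.21) with MS7126, a difference of -2.28 (SE 0.32) (adjusted p = 7.36e-10, normal test); its DMSO level was 714 in the MS7126N1 table and 441 in that of MS7126N2. Of 21 kept NRF2 targets, which answer oxidants, 2 rose with MS7126N2, beside 0.356% of all genes, and the median was 0.25, beside -0.04 with MS7126N1. These were the reductases AKR1B10, from 192 to 457, and AKR1C1, from 3459 to 5585. NQO1 and HMOX1, 2 further targets, were not called, at 0.34 (SE 0.15) and -0.13 (SE 0.20) in the authors' deposited table.

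Of the 32 kept sterol genes, 29 had values below 0 with MS7126N2 and 1 fell, while with MS7126N1 14 had values below 0 and none was called. Of 21 kept cholesterol synthesis genes none was called with either analog, beside 0.356% of all genes falling with MS7126N2. With MS7126N2 19 of the 21 lay below 0 and the median was -0.37; with MS7126N1 9 of 21 lay below 0 and the median was 0.04. HMGCS1, which makes HMG-CoA, had rebuilt levels of 650.0 in DMSO and 748 with MS7126N1, and 661 and 426 with MS7126N2. Its log2 fold change was 0.20 (SE 0.19) with MS7126N1 and -0.63 (SE 0.23) with MS7126N2 in the authors' deposited tables. The difference of MS7126N2 from MS7126N1 was -0.84 (SE 0.30) for HMGCS1, with an adjusted p of 0.219 by the normal test. Once a covariance was allowed for the DMSO libraries in common, this came to 0.0038, and CYP51A1 and SQLE, 2 later enzymes of the pathway, also passed. SREBF2 was not called with either analog (-0.0025 (SE 0.15) with MS7126N1 and -0.30 (SE 0.17) with MS7126N2 in the authors' deposited tables).

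The median over the 32 kept sterol genes was 0.03 with MS7126N1, -0.35 with MS7126N2, -1.24 with MS7126 and 0.45 with C24, beside -0.01 over all genes for each. MS7126 lay below MS7126N1 by a called difference in 19 of the 32 genes and below MS7126N2 in 13, beside 1.93% and 1.11% of all genes. C24 lay above MS7126N2 in 16 of the 32 genes and above MS7126N1 in 4, beside 0.377% and 0.167%. No sterol gene differed between the analogs at the same threshold. With a covariance for the DMSO libraries in common, MS7126 lay below MS7126N1 in 25 and below MS7126N2 in 23, C24 lay above MS7126N2 in 22 and above MS7126N1 in 14, and MS7126N2 lay below MS7126N1 in 5. The 9-letter pattern TCACNCCAC, a sterol response element, was in 0 of 21 matched promoters of the synthesis genes and in 0.908% of all promoters. Among the other sterol genes it was in 1 of 10 promoters, that of SREBF2. An absence says only that these letters are not in the 250 bases searched.

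**Figure D3:**
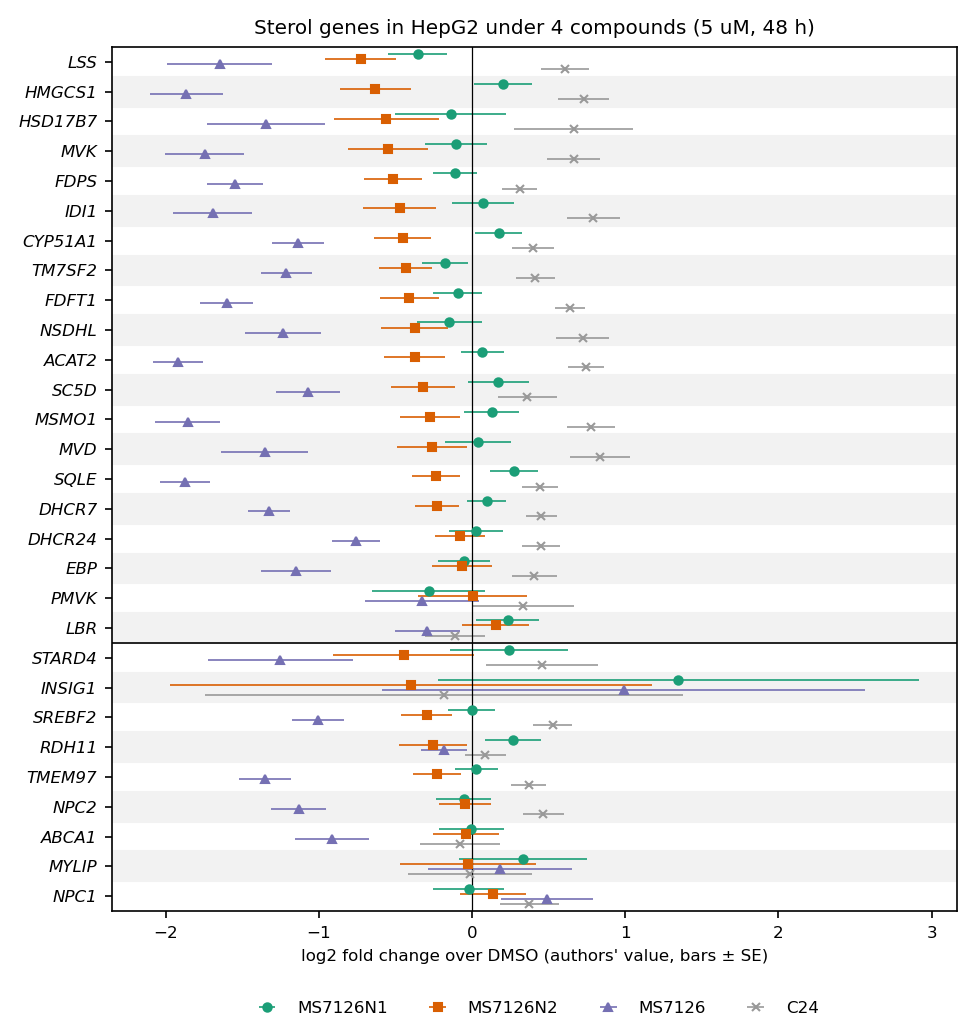
Log2 fold change over DMSO (x axis, from the authors' deposited tables, bars ± SE) for 20 of the 21 cholesterol synthesis genes (above the line) and 9 of the 11 sterol-responsive genes (below), with circles for MS7126N1, squares for MS7126N2, triangles for MS7126 and crosses for C24. MS7126N1 scatters about 0 while MS7126N2 lies between it and MS7126 for most genes, with HMGCS1 at 0.20, -0.63 and -1.86 for MS7126N1, MS7126N2 and MS7126.

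Hepatocyte genes had a median log2 fold change of -0.06 with MS7126N1 and 0.05 with MS7126N2. ALB, the albumin gene, had log2 fold changes of 0.06 (SE 0.15) and 0.05 (SE 0.14) in the authors' deposited tables, and a difference with a 95% interval of -0.41 to 0.40. Of the 23 kept genes, 2 fell with MS7126N2 and none with MS7126N1, beside 0.356% and 0.112% of all genes: the fibrinogen chains FGA, from a rebuilt 13793 to 9569.8, and FGB, from 3942 to 2687. FGA had -0.53 (SE 0.12) with MS7126N2 and -1.48 (SE 0.12) with MS7126 in the authors' deposited tables, and that difference passed (-0.96 (SE 0.17), adjusted p = 9.88e-06, normal test).

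The genes lowered by MS7126N2 included adhesion receptors and signalling genes. CELSR2, an adhesion receptor of the cadherin family, had rebuilt levels of 158 in DMSO and 159 with MS7126N1, and 156 and 16.2 with MS7126N2. Its log2 fold change in the authors' deposited tables was -3.26 (SE 0.54) with MS7126N2, -3.27 (SE 0.49) with MS7126 and 0.37 (SE 0.35) with C24. SIRPA, the receptor of CD47, went from 422 to 139.6, and UBD, the ubiquitin-like protein FAT10, from 673 to 171. MVP, the major vault protein, went from 988 to 398, and GGT1, which cleaves glutathione, from 456 to 147. ARPIN, an inhibitor of the Arp2/3 complex, had -2.55 (SE 0.47) in the authors' deposited table. STAT3 fell from 2545 to 1387 (-0.88 (SE 0.23) in the authors' deposited table, adjusted p = 0.0312). LPIN1, a phosphatidate phosphatase, was called at -2.32 (SE 0.65), with DMSO levels of 298 and 499 in the 2 analog tables. EHMT1, a histone methyltransferase, was called at -1.43 (SE 0.23) with MS7126N2 and had 0.72 (SE 1.29) with MS7126N1, again with unequal DMSO levels (381 and 593). Some calls need care: RGPD5 and NBPF20 belong to families of near-identical copies that can split reads, and SYTL4, whose level with MS7126N2 was near 0 so that its fitted change sets no size, had a rebuilt DMSO level of 222 in the MS7126N2 table and 47.3 in that of MS7126N1.

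Set against each other, the analogs differed in 30 of 14331 genes (0.209%), 17 higher with MS7126N2 (0.119%) and 13 lower (0.0907%). The test took the difference of the 2 log2 fold changes over the root of their summed variances, two-sided on the normal distribution, with adjustment over all genes of 5 pairs of compounds together. It counts the shared DMSO libraries 2 times, which widens the standard error. With a covariance for them, which takes the product of the standard errors off the summed variances, 239 genes passed, 97 higher and 142 lower, and adjusted over this pair alone 14 passed. Without genes whose DMSO level was over 1.2-fold apart, 19 genes passed, 13 higher and 6 lower. Of the 17 higher genes 6 were ATF4 genes: ASNS, TRIB3, NUPR1, PCK2, SLC1A5 and STC2, with differences from 0.76 to 1.91. These are 6 of the 39 kept ATF4 genes, beside 0.119% of all genes. No ATF4 gene was lower.

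Those 17 also hold NOTUM, a secreted hydrolase that inactivates Wnt proteins, with a rebuilt 8982 in DMSO, 14385 with MS7126N2 and 8023 with MS7126N1 (0.85 (SE 0.22), adjusted p = 0.0127, normal test). SLC43A1, an exporter of branched amino acids, differed by 0.97 (SE 0.25), and EIF4EBP1 by 0.88 (SE 0.23). H1F0, the linker histone H1.0, differed by 0.67 (SE 0.19) and CPLX2, a complexin, by 0.78 (SE 0.19). IK, a splicing factor, differed by 1.40 (SE 0.37), with DMSO levels of 792 and 512 in the tables of MS7126N1 and MS7126N2. Among the 13 lower genes CELSR2 differed by -3.28 (SE 0.66), TK2, the mitochondrial thymidine kinase, by -3.27 (SE 0.75), ARPIN by -2.51 (SE 0.57) and SIRPA by -1.57 (SE 0.35). MVP, UBD and GGT1 differed by -1.15 (SE 0.26), -1.34 (SE 0.34) and -1.44 (SE 0.38). For each of CELSR2, ARPIN, SIRPA, MVP, UBD and GGT1 the DMSO levels of the 2 tables were within 1.2-fold. Those of TK2 were over 1.2-fold apart.

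PDAP1, a phosphoprotein that binds platelet-derived growth factor, was called with both analogs in opposite directions. Its rebuilt level was 2035 in DMSO and 1186 with MS7126N1, and 1389 in DMSO and 2078 with MS7126N2, so the DMSO values were themselves over 1.2-fold apart. The PDAP1 level with MS7126N2 was close to the DMSO level set beside MS7126N1. In the authors' deposited tables the log2 fold changes were -0.78 (SE 0.16) and 0.58 (SE 0.16), with adjusted p of 0.00109 and 0.0368, and the difference was 1.36 (SE 0.22) (adjusted p = 7.45e-07, normal test). With MS7126 and C24 PDAP1 had 0.13 (SE 0.18) and -0.03 (SE 0.13). Of the 5 genes called with both analogs the other 4 went the same way, among them PER1, SPDYE9P and RP11-20G6.3. SPDYE9P is a pseudogene with near-identical copies.

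**Figure D4:**
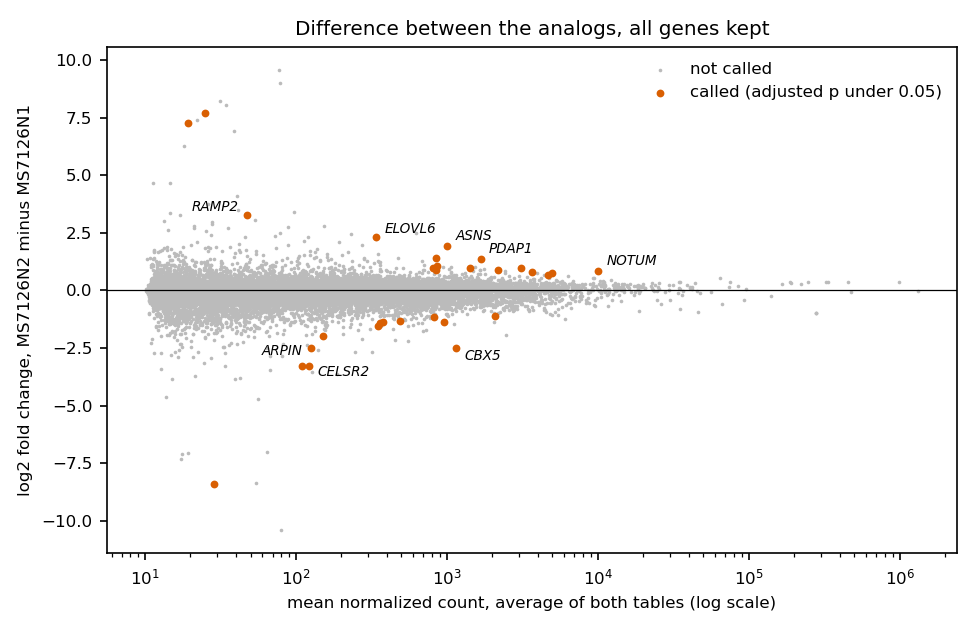
Difference of the log2 fold changes, MS7126N2 minus MS7126N1 (y axis), against the mean normalized count of both tables (x axis, log scale) for the 14331 kept genes, with the 30 genes that passed in orange. ASNS and ELOVL6 stand above 0 at 1.91 and 2.30, and CBX5 and CELSR2 below it at -2.50 and -3.28. For ELOVL6 and CBX5 the DMSO levels beside the 2 analogs were over 1.2-fold apart.

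**Figure D5:**
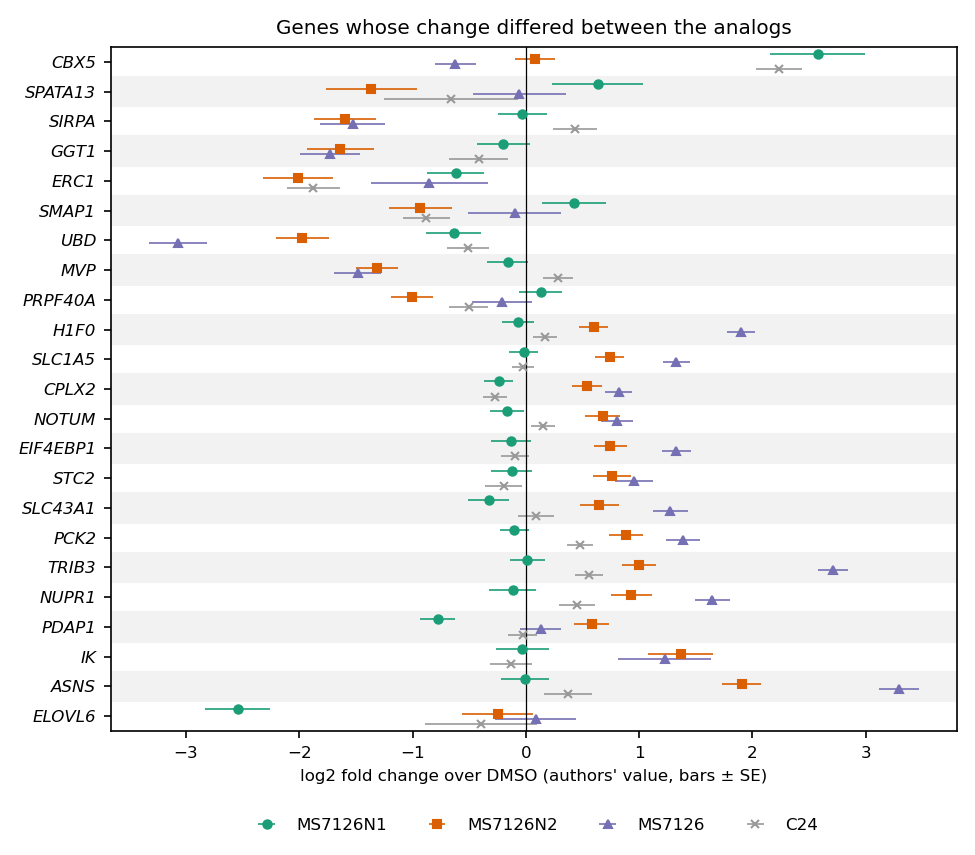
Log2 fold change over DMSO (x axis, from the authors' deposited tables, bars ± SE) for the genes that differed between the analogs with a mean of at least 100 (y axis), with circles for MS7126N1, squares for MS7126N2, triangles for MS7126 and crosses for C24. TRIB3, PCK2 and SLC1A5 lie near 0 with MS7126N1 and above it with MS7126N2 and MS7126, while PDAP1 lies on opposite sides of 0 for the analogs, at -0.78 and 0.58.

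Each analog differed from MS7126 in more genes than from C24. MS7126 differed from MS7126N1 in 465 of 14329 genes (3.25%), 189 higher and 276 lower, and from MS7126N2 in 237 (1.65%), 78 higher and 159 lower. C24 differed from MS7126N1 in 65 genes (0.454%), 24 higher and 41 lower, and from MS7126N2 in 77 (0.537%), 54 higher and 23 lower. Of the 102 genes called with MS7126N2, 20 differed from MS7126, 25 from C24 and 23 from MS7126N1, and 55 differed from none of them. With the covariance these counts were 41, 60, 74 and 14. A gene that did not pass is not shown to act alike: the median SE of a difference was between 0.46 and 0.48 on the log2 scale.

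Of the 39 ATF4 genes, MS7126 lay above MS7126N1 in 25 and above MS7126N2 in 7, and C24 lay below MS7126N2 in 3 and differed from MS7126N1 in none, beside 1.32%, 0.544%, 0.16% and 0.454% of all genes. With the covariance these were 33, 20 and 9, and C24 lay above MS7126N1 in 4. IGFBP1, the growth factor binding protein of the liver, had rebuilt levels of 263 with MS7126N1, 376 with MS7126N2, 4733 with MS7126 and 434 with C24. With MS7126N2 it was not called (0.96 (SE 0.30) in the authors' deposited table, adjusted p = 0.148), and it differed from MS7126 by 3.63 (SE 0.36). CDKN1A, the p21 cell cycle inhibitor, had 0.05 (SE 0.19) with MS7126N1, 0.29 (SE 0.19) with MS7126N2 and 1.21 (SE 0.17) with MS7126 in the authors' deposited tables, and MS7126 differed from MS7126N2 by 0.93 (SE 0.26) (adjusted p = 0.0287, normal test). TXNIP, which restrains thioredoxin and glucose uptake, had 0.17 (SE 0.33), 0.27 (SE 0.32) and 1.96 (SE 0.27) in the same order.

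The analogs were also read over genes called in libraries that share no control with them. Huh7, a second liver cancer line, was given 5 uM MS7126, for a time that the labels give as 24 h in one place and 48 h in another, and 2398 of the genes called higher in the authors' deposited table with a mean of at least 100 were kept here, 16.7% of all kept genes. Over these the median log2 fold change was 0.04 with MS7126N1 and 0.05 with MS7126N2, with 57.0% and 57.8% above 0, beside 49.1% and 48.7% over all kept genes. They held 30 of the 51 genes that rose with MS7126N2 and 6 of the 51 that fell, and 2 of the 13 that rose with MS7126N1 and 2 of the 16 that fell. The 2311 kept genes called lower in Huh7 were 16.1% of all kept genes. Their medians were -0.04 with both analogs, with 39.6% above 0 for MS7126N1 and 43.7% for MS7126N2. They held 23 of the 51 genes that fell with MS7126N2 and 1 that rose, and 4 of the 16 that fell with MS7126N1 and 2 that rose.

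Hairpins #664, #665 and #667 against SREBP2 in HepG2 were each set against the same shControl libraries, so values alike among the hairpins are not independent support. Over the genes called higher with them the medians with MS7126N2 were -0.10, -0.16 and -0.12, with 37.6%, 30.1% and 36.6% above 0, against 48.7% over all kept genes. With MS7126N1 these medians lay between -0.0015 and 0.03, and 49.8% to 54.6% of values were above 0. With C24 37.4%, 23.7% and 32.7% were above 0, against 48.9% over all kept genes. With MS7126 these were 38.3%, 40.9% and 42.5%, against 49.1%. Over the genes called lower the medians with MS7126N2 were 0.07, 0.08 and 0.06, with 62.6%, 66.1% and 61.4% above 0. With MS7126N1 they lay between -0.03 and -0.01, with 42.0% to 46.2% above 0. Over the genes that the SREBP2 hairpins lowered at least 2-fold, 50.4%, 53.5% and 49.7% were above 0 with MS7126N2. Over those raised at least 2-fold, 32.4%, 17.7% and 37.6% were. For a hairpin against EZH2 in Huh7, 45.1% of the 1256 genes called higher and 54.7% of the 1533 called lower were above 0 with MS7126N2, and 49.8% and 46.4% with MS7126N1.

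The 13 genes encoded in the mitochondrial genome lay below 0 with each analog. Their median was -0.48 with MS7126N1, -0.18 with MS7126N2, -0.36 with MS7126 and -0.78 with C24, and none was called with any of the 4 compounds. The median SE of these genes was 0.29 with MS7126N1 and 0.83 with MS7126N2. MT-CO1, a subunit of cytochrome oxidase, had -0.45 (SE 0.29) with MS7126N1 and -0.11 (SE 0.81) with MS7126N2 in the authors' deposited tables, and the difference had a 95% interval of -1.34 to 2.03.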

How the data were processed

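RNA-seq libraries of HepG2 cells were made from total RNA with either of 2 kits, per the labels' protocols, which do not say which library had which. The submitters' processing notes name STAR 2.4.2, Salmon and GRCh38. For each compound the authors deposited a table in the layout of DESeq2 with a mean normalized signal (counts averaged over the groups compared), the log2 fold change over DMSO and its SE, a score (their ratio) and p-values, raw and Benjamini-Hochberg adjusted, per the file headers. Single-library values of these groups were not analysed here, so depth per library is not given and no count model was fitted. Genes with a mean of at least 10 in both analog tables were kept, and group levels rebuilt from mean and fold change. Differences between compounds (5 pairs) took a two-sided normal test, adjusted over all genes of all pairs and tested on simulated data. Python 3.11.15, pandas 2.3.3, scipy 1.17.1 and matplotlib 3.10.9 were used.

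Named genes were those called with MS7126N1 or with both analogs, the 12 highest and 12 lowest called with MS7126N2 and the 10 highest and 10 lowest called differences (mean at least 100), up to 4 per list by smallest p with MS7126N2, and a fixed set that includes EZH2, ATF4 and SREBF2. ALB, ALDH18A1, CPLX2, CTH, CYP51A1, EHMT1, H1F0, HMOX1, MT-CO1, MTHFD2, MVP, NOTUM, NQO1, PPP1R15A, S100P, SLC7A5, SMOX and STAT3 fell outside this rule and were chosen after their values were seen. The compounds and lists were chosen with earlier results of these data known. A few of the genes the rule names are not reported here.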

Additional observations from a re-analysis of the deposited data

Results flagged for a closer look

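PDAP1 moved in opposite directions with the analogs, falling with MS7126N1 and rising with MS7126N2 against the same DMSO libraries. The test of the difference between them gave 1.36 on the log2 scale (SE 0.22, adjusted p = 7.45e-07, normal test). Its rebuilt DMSO level was 2035 in the MS7126N1 table and 1389 in the MS7126N2 table, over 1.2-fold apart. PDAP1 was therefore not among the 19 differences left under that limit. The part of this gap in the opposite directions and in the difference was not tested. Groups of 2 libraries were too small to look for a library far from the others.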

How the results depend on the processing

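No paired analysis was possible because the tables hold no values of single libraries; for the same reason leaving out each replicate, another normalization and a second count tool were not run. The number of genes called with MS7126N1 fell from 29 to 19 with a mean of at least 100 in both tables and to 12 without genes whose DMSO level was over 1.2-fold apart, and was 23 (7 higher, 16 lower) after centring within bins of GC content. For MS7126N2 against MS7126N1, 30 genes became 239 when a covariance was allowed for the DMSO libraries in common, 14 when adjusted over the pair alone, and 19 (13 higher, 6 lower) without genes of unequal DMSO level; centring by GC content gave 27 (13 higher, 14 lower). The covariance gave 1475 and 897 genes for MS7126 against MS7126N1 and MS7126N2, and 577 and 321 for C24. Adjusted over the pair alone, C24 against MS7126N1 gave 25. A difference of at least 2-fold left 24 and 48 genes for C24 against MS7126N1 and MS7126N2. The GC and DMSO alternatives were chosen after seeing the data, and the cause of these changes was not tested. Between the analogs, genes higher with MS7126N2 were the larger share at first (17 of 30) but the smaller with the covariance (97 of 239), with a difference of at least 2-fold (8 of 21) and after GC centring (13 of 27). The sign of the MS7126N1 median turned for 6 lists under 1 or more alternatives, each within 0.04 of 0 at first and within 0.07 after. None of the genes called with either analog, or between them, changed sign under the alternatives run. Most of these leave the fold change as it is, and centring moved it by little beside the called values. A turn in sign was therefore hardly possible, and its absence is no sign of stability. With 2 libraries per group and a median SE of 0.33 to 0.34, small changes were not detectable.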
